A study of Mus musculus with 28 samples.

Results

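Long intergenic noncoding RNAs (lincRNAs) of the neonatal mouse left ventricle were examined after myocardial infarction (MI) made at an age when the heart regenerates or at an age when it heals with a scar. The members were the autosomal genes annotated as lincRNA whose median level over the 16 libraries of the 3-day follow-up was at least 1 CPM, the count scaled to a common library total, with H19 and Meg3 left out. They numbered 163 of 45318 gene rows, and of 2438 autosomal lincRNA rows. The members were selected on this measured level, so their presence in these libraries is a description. The lincRNA label is that of the 3-day libraries. The annotation that came with the 21-day libraries gave it to 155 members, and listed 4 as processed transcript, 2 as TEC, a provisional class, and 2 as protein-coding. Gdap10, Gm26884 and Gm29811 lay just inside the limit at 1.06, 1.02 and 1.01 CPM, and Gm26517, Gm26859 and Gm20045 lay just outside it at 0.993, 0.976 and 0.952 CPM.

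Hsd:ICR(CD-1) mice underwent ligation of the left anterior descending coronary artery (MI) or a SHAM operation on postnatal day 7 or postnatal day 1, and the wall of the left ventricle remote from the infarct was taken 3 or 21 days later. The groups were 7d-MI + 3, 1d-MI + 3, 7d-SHAM + 3 and 1d-SHAM + 3, with 4 libraries each, and 7d-MI + 21, 1d-MI + 21, 7d-SHAM + 21 and 1d-SHAM + 21, with 3 libraries each. Pups stayed with their mother and litter. Since groups at a given follow-up were operated on at different ages, 7d and 1d hearts also differed in age at collection by the gap between the operations.

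LincRNAs are transcribed and spliced like messenger RNAs but have no long reading frame, and many stay in the nucleus. Some build nuclear bodies, some are the primary transcripts of microRNAs or carry small nucleolar RNAs (snoRNAs) in their introns, and some act on the expression of neighbouring genes. In the heart, several have been linked to muscle growth, vessel cells and the fetal programme, but for most members in these files only a gene identifier is known.

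The microRNA primary transcripts are the members with the best known products, and the sequences below show what 6720427I07Rik and Mir17hg carry. RefSeq (GRCm38) placed 3 microRNA genes inside 6720427I07Rik (chr13:48532905-48546500, minus strand) and 6 inside Mir17hg (chr14:115042879-115046727, plus strand). Capitals mark the seed, bases 2 to 8, which pairs with target messages.
mmu-let-7d-5p: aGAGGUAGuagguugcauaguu
mmu-let-7f-5p: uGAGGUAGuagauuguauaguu
mmu-let-7a-5p: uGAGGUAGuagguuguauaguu
mmu-miR-17-5p: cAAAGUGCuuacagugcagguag
mmu-miR-20a-5p: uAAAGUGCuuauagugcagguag
mmu-miR-18a-5p: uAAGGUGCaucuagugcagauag
mmu-miR-19a-3p: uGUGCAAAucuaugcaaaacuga
mmu-miR-19b-3p: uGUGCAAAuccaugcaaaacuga
mmu-miR-92a-3p: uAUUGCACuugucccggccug
The 3 let-7 microRNAs share 1 seed, miR-17-5p and miR-20a-5p share another, and so do miR-19a-3p and miR-19b-3p. The files counted the long transcripts and not the mature microRNAs.

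Most members were scarce. Their median over members was 3.07 CPM, 30 members reached 10 CPM and 59 stayed under 2 CPM. Together they took 0.206% to 0.498% of the counts in the libraries of the 3-day follow-up, which held 33077962 to 51942648 counts each. Malat1, an abundant RNA of nuclear speckles, made up 15.1% to 37.3% of the members' CPM there, and 3 loci of ribosomal RNA repeats (Gm42418, Gm26917 and AY036118) made up 5.18% to 30%. At 21 days, with another library kit and 40514177 to 168550985 counts a library, those 3 loci made up 25.5% to 99.7%, and members took 1.03% to 38.9% of the counts. The labelled tissue carried all 8 cardiomyocyte markers in every group. The summed level of 5 atrial markers was 728.9 to 2231 CPM for 7d-MI + 3 and 2249 to 4172 CPM for 1d-MI + 3. It was 99.2 to 156.9 CPM for 7d-SHAM + 3 and 36.0 to 313.7 CPM for 1d-SHAM + 3. At 21 days it was 2143 to 4518 CPM for 7d-MI + 21 and 88.4 to 970.5 CPM for 7d-SHAM + 21. The 1d-MI + 21 libraries had 396.8 to 1359 CPM and the 1d-SHAM + 21 libraries 167.7 to 1000 CPM. Its part in the results was not tested.

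The label of intergenic genes was checked against GENCODE M21, whose positions equalled those in the files for all 163 members. It held for a minority of them. Exons of 99 members overlapped exons of a gene on the opposite strand, in 71 cases a protein-coding gene, a further 11 overlapped a gene on the same strand only, and 53 overlapped no exon of another gene. Genes of any type were counted, so a microRNA gene within a member's own exons also made an overlap. Because the strand setting of the counting is not given in the sources used here, reads of such a member and of its partner cannot be told apart. Gm26735, one of the most abundant members, shared 98.8% of its exon bases with Sox4, a transcription factor of embryonic tissues, and their levels over the 16 libraries of the 3-day follow-up had a Pearson correlation of 1.000 as a description. A stretch that shows the overlap is printed for Gm29233 and Thbs1, at chr2:118123451-118123480 of GRCm38, in both readings.
Gm29233: tggtggagttcacaacctttacagacaggc
Thbs1: gcctgtctgtaaaggttgtgaactccacca
The sequences are complementary, so a read of this stretch fits either gene when strand is not used.

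Odorant receptor genes are silent in the heart, and reads on them give a measure of background. Over 997 of 1050 such genes, those left after the 5% with the most reads per length were put aside, 7d-MI + 3 libraries had a summed level of 0.483 to 1.16 CPM and 1d-MI + 3 libraries had 13.1 to 74.9 CPM. The 7d-SHAM + 3 libraries had 0.102 to 0.495 CPM. The 1d-SHAM + 3 libraries divided by the number that begins their sample titles, a mark the labels do not explain: those of prefix 1078 had 25.5 and 27.0 CPM, and those of prefix 1103 had 0.598 and 0.832 CPM. Prefixes differed between groups, so the prefix and the group cannot be told apart, and for members whose calls against 1d-SHAM + 3 are printed below, a call that changed with either prefix alone is given with its values. The lists of genes beyond the members were not run with each prefix alone.

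The first comparison set 7d-MI + 3 against 1d-MI + 3, infarcted hearts of the older and the younger operation. Of the 163 members, 31 were higher in 7d-MI + 3, against 19.4% of all genes tested, and 50 were lower, against 23.5% of all genes tested. In percent, 19% of members were higher and 30.7% lower. The members' median log2 fold change was -0.24, beside -0.13 over all genes. Calls are adjusted p-values under 0.05 by edgeR's quasi-likelihood test over all 20345 genes tested, and the scale of all fold changes is log2. The samples are shared between the comparisons that follow, so their calls are not independent of each other.

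Lower calls outnumbered higher calls among members without exon overlap. Of the 53 members without overlap, 4 were higher and 21 lower in 7d-MI + 3, with a median log2 fold change of -0.78. Of the 99 members with overlap on the opposite strand, 26 were higher and 23 lower, with a median of 0.03, and of the 11 with overlap on the same strand only, 1 was higher and 6 lower, with a median of -0.95. These subsets were formed after the values were known, and their difference was not tested.

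Called members that overlapped a coding gene mostly had the sign of that gene. Of the 34 called members among the 71 pairs, 33 had the sign of their partner, and in 30 the partner was called in the same direction. The Pearson correlation of the fold changes over the 71 pairs was 0.880, as a description of genes that may share reads. It was 0.955 over the 22 pairs that shared 90% or more of the member's exon bases, 0.957 over the 31 that shared 10% to 90%, and 0.340 over the 18 that shared less. Over 49 members without overlap and their nearest coding gene it was 0.016, and 12 of 24 called members had the sign of that neighbour. By overlap, 12 of 12 called members that shared 90% or more of their exon bases had the partner's sign, as did 17 of 17 that shared 10% to 90%, and 4 of 5 that shared less than 10%.

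**Figure D1:**
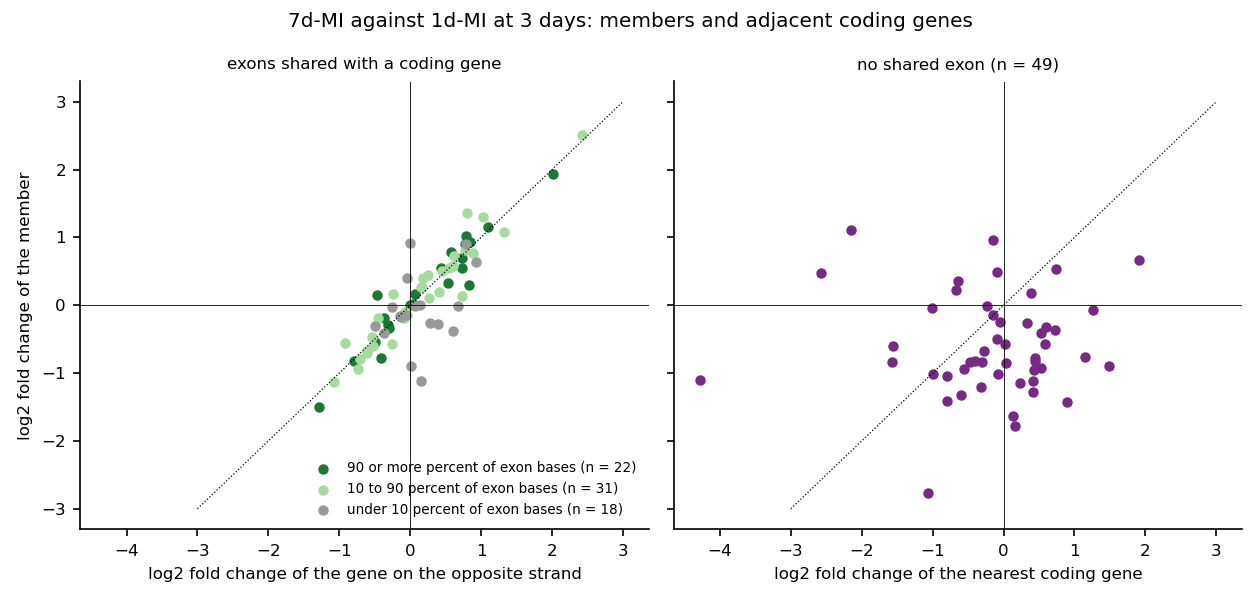
Log2 fold change of members in 7d-MI + 3 against 1d-MI + 3 (vertical axis) against that of the overlapping coding gene (left, 71 pairs, coloured by the percent of exon bases shared) or of the nearest coding gene where no exon is shared (right, 49 pairs). Points on the left lie near the dotted line of equal change, with a Pearson correlation of 0.880, while those on the right scatter with 0.016.

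Gm29233, which overlaps Thbs1 (thrombospondin-1, a matrix glycoprotein), had 23.4, 29.3, 20.6 and 26.3 CPM in 7d-MI + 3 hearts, against 3.27, 3.95, 2.30 and 7.90 CPM in 1d-MI + 3 hearts. The 7d-SHAM + 3 hearts had 3.37, 4.52, 4.23 and 2.50 CPM and the 1d-SHAM + 3 hearts 3.04, 2.66, 1.97 and 1.13 CPM. All 7d-MI + 3 values lay above all others. The log2 fold change in 7d-MI + 3 against 1d-MI + 3 was 2.51 ± 0.33 (SE, adjusted p = 1.8e-05), beside 2.42 for Thbs1, and that against 7d-SHAM + 3 was 2.77 ± 0.33 (adjusted p = 6.0e-06), beside 2.49 for Thbs1.

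Some other members with overlap had fold changes close to those of their partners. Gm26735 had 122.5, 126.4, 105.2 and 130 CPM in 7d-MI + 3, and 1d-MI + 3 libraries had 105.5, 229, 323.2 and 198.8 CPM, with a log2 fold change of -0.82 beside -0.79 for Sox4. Gm26669, which shares 92.5% of its exon bases with Zfp36l1, an RNA-binding protein that promotes message decay, had a log2 fold change of 1.15 beside 1.10. Gm26527 lies wholly in the exons of Arsb, a lysosomal sulfatase, and had 1.94 beside 2.01. Gm17275, which shares 25.0% of its exon bases with H3f3a, a gene of a histone H3 variant, had -0.80 beside -0.71. Not all pairs were close. Over the 22 pairs that shared 90% or more, the absolute difference between member and partner had a median of 0.10 and a maximum of 0.61. The maximum was that of Gm26882 (0.15) and Morf4l1 (-0.46).

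RefSeq placed microRNA genes inside 5 members, of which 6720427I07Rik, Mir17hg and Mirg fell in 7d-MI + 3 against 1d-MI + 3. The call of Mirg (-0.97, adjusted p = 0.026) was kept in 12 of 15 alternatives (adjusted p up to 0.11). The other members, 2900076A07Rik (-0.21, adjusted p = 0.42) and Gm37233 (0.33, adjusted p = 0.63), did not pass. 6720427I07Rik, the let-7 transcript, had 9.0, 10, 9.85 and 9.44 CPM in 7d-MI + 3 hearts and 28.2, 23.0, 34.8 and 33.8 CPM in 1d-MI + 3 hearts. It had 17.7, 12.2, 16.2 and 11.2 CPM in 7d-SHAM + 3 hearts and 66.1, 60.9, 41.4 and 46.7 CPM in 1d-SHAM + 3 hearts. The 7d groups lay below the 1d groups with no overlap, and each MI group lay below its own SHAM group. Its log2 fold change was -1.65 ± 0.18 in 7d-MI + 3 against 1d-MI + 3 (adjusted p = 1.2e-06) and -1.91 ± 0.18 in 7d-SHAM + 3 against 1d-SHAM + 3 (adjusted p = 2.1e-06). With MI it was -0.58 ± 0.17 at 7 days (adjusted p = 0.014) and -0.84 ± 0.17 at 1 day (adjusted p = 0.0067), and the calls against 1d-SHAM + 3 held with either prefix alone.

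Mir17hg, the transcript of the miR-17 to miR-92a cluster, known for its part in cell proliferation, had 1.13, 1.72, 1.06 and 0.998 CPM in 7d-MI + 3 and 4.19, 4.24, 5.72 and 6.5 CPM in 1d-MI + 3. It had 1.39, 1.08, 1.46 and 1.44 CPM in 7d-SHAM + 3 and 7.74, 6.98, 3.01 and 4.33 CPM in 1d-SHAM + 3. Both 7d groups lay below both 1d groups. The log2 fold change was -2.07 ± 0.28 for the MI groups (adjusted p = 1.5e-05) and -2.04 ± 0.28 for the SHAM groups (adjusted p = 7.1e-05). With MI it was -0.13 ± 0.29 at 7 days and -0.10 ± 0.26 at 1 day, and neither passed the test (adjusted p = 0.79 and 0.83). The summed level of 8 proliferation markers had ranges of 620.9 to 754.1 CPM for 7d-MI + 3, 309.9 to 651.8 CPM for 1d-MI + 3, 148.8 to 280.1 CPM for 7d-SHAM + 3 and 408 to 958.3 CPM for 1d-SHAM + 3.

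Gm20732 fell in each of the 4 comparisons at 3 days. Carmn is known as the host of the smooth muscle microRNAs miR-143 and miR-145, though RefSeq placed no microRNA gene inside its span here. It had a log2 fold change of -1.10 ± 0.17 in 7d-MI + 3 against 1d-MI + 3 (adjusted p = 7.6e-05) and fell in 7d-SHAM + 3 too (-0.92 ± 0.17, adjusted p = 0.001). A list of microRNA host genes held 4 members, Mir17hg, Mirg, Carmn and Lockd, and did not hold 6720427I07Rik. RefSeq placed no microRNA gene inside Carmn or Lockd. Of 17 genes of this list tested, members or not, 0 were higher and 11 lower in 7d-MI + 3 against 1d-MI + 3, beside 23.5% lower among all genes tested, with a median log2 fold change of -1.19 beside -0.13 over all genes. The count was also 11 of 17 for the SHAM groups, beside 12.2% of all genes tested. In 7d-MI + 3 against 7d-SHAM + 3, 5 of the list were higher and 1 lower, beside 19.8% and 14.2%. No read fell on 2 of the 17 in any 7d library of the 3-day follow-up, where receptor reads were 0.102 to 1.16 CPM, and without them 9 of 15 were lower for the MI groups and 10 of 15 for the SHAM groups. The part of the receptor reads in these counts was not tested.

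Some hosts of snoRNAs, the guides of ribosomal RNA modification, were lower too. Snhg12 had 3.08, 2.48, 2.33 and 2.21 CPM in 7d-MI + 3 and 5.89, 3.15, 7.05 and 5.75 CPM in 1d-MI + 3, with a log2 fold change of -1.11 ± 0.25 (adjusted p = 0.0019). The 1d-MI + 3 values lay above those of 7d-MI + 3 in every library. Snhg6, which shares exon bases with Mcmdc2 on the other strand, fell by 1.12 on the log2 scale (adjusted p = 0.0019), while Snhg18 was higher, at 0.53 ± 0.20 (adjusted p = 0.039), a call kept in 4 of 15 alternatives (adjusted p up to 0.18). Of 21 snoRNA host genes tested, 1 was higher and 11 lower in 7d-MI + 3 against 1d-MI + 3, beside 19.4% and 23.5% of all genes tested, and the list's median log2 fold change was -1.0 beside -0.13. In 7d-SHAM + 3 against 1d-SHAM + 3, 0 were higher and 8 lower, beside 8.12% and 12.2%, and in 7d-MI + 3 against 7d-SHAM + 3, 1 was higher and 1 lower, beside 19.8% and 14.2%.

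**Figure D2:**
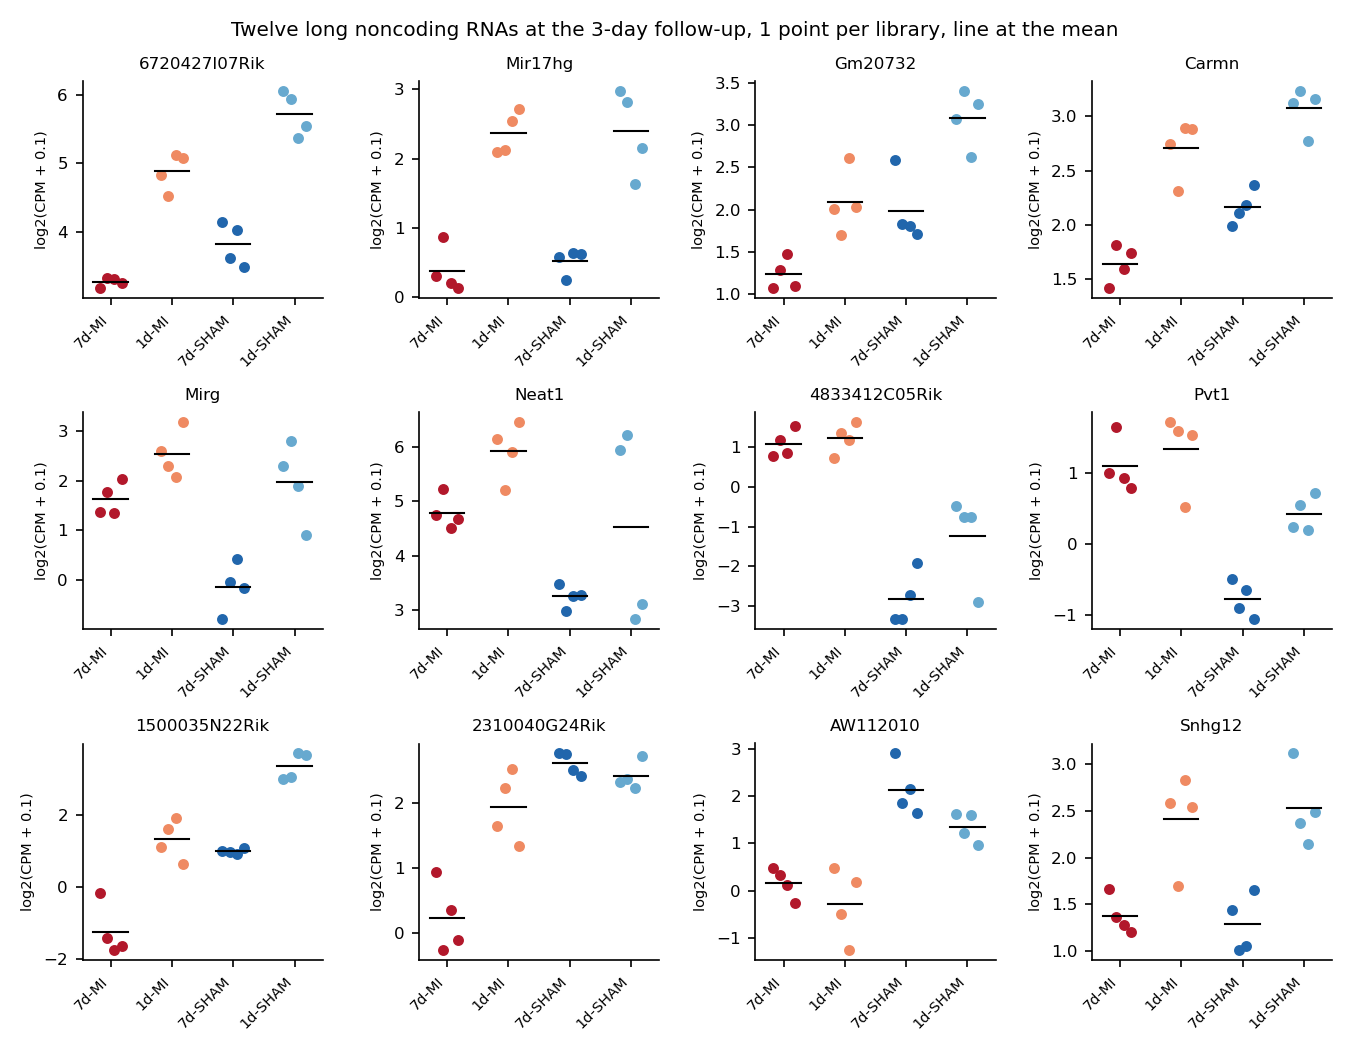
Levels of 12 members in each library of the 3-day follow-up, as log2(CPM + 0.1) on the vertical axis, with groups in the order 7d-MI, 1d-MI, 7d-SHAM and 1d-SHAM and a line at each group's mean (n = 4 each). 6720427I07Rik and Mir17hg lie lower in both 7d groups, 4833412C05Rik lies higher in both MI groups, and Neat1 divides into 2 pairs of libraries in 1d-SHAM.

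The second comparison set 7d-MI + 3 against 7d-SHAM + 3. Here 31 members were higher, beside 19.8% of all genes tested, and 35 were lower, beside 14.2% of all genes tested. In percent, 19% of members were higher and 21.5% lower, and the median log2 fold change was -0.03, beside 0.08 over all genes. Among members without exon overlap 7 were higher and 22 lower.

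4833412C05Rik, listed in RefSeq with the synonym Bigheart, had the highest fitted fold change with MI among the members at either age. It had 1.60, 2.17, 1.70 and 2.80 CPM in 7d-MI + 3 hearts, against 0, 0, 0.0512 and 0.163 CPM in 7d-SHAM + 3 hearts. It had 1.55, 2.44, 2.14 and 2.97 CPM in 1d-MI + 3 hearts, against 0.617, 0.486, 0.487 and 0.0333 CPM in 1d-SHAM + 3 hearts. The MI libraries lay above the SHAM libraries at both ages, and the 7d-SHAM + 3 libraries rested on 0, 0, 2 and 6 reads. The log2 fold change with MI was 5.11 ± 0.70 at 7 days (adjusted p = 1.3e-05) and 2.44 ± 0.55 at 1 day (adjusted p = 0.012), and the difference between the ages, 2.67 ± 0.89, missed the threshold (adjusted p = 0.052) but passed with prefix 1078 alone (3.09, adjusted p = 0.0077). With the 1d-SHAM + 3 libraries of prefix 1078 alone the call at 1 day was lost (2.03 ± 0.54, adjusted p = 0.051).

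Its promoter window by RefSeq is printed because of that rank, from GRCm38, chr7:67803447-67803746, minus strand, 250 bases before to 50 after the gene start of RefSeq. The gene start of GENCODE M21 differs, at chr7:67804139, and the printed window lies downstream of it. Capitals mark GGAAA on either strand, the core letters bound by NFAT factors, and the CArG box bound by serum response factor.
4833412C05Rik: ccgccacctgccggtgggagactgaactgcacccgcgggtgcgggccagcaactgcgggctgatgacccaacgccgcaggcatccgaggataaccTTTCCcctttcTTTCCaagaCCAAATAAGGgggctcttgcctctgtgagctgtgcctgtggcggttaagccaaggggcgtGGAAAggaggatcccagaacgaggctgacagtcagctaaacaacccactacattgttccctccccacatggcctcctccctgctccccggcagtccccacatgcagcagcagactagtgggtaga
The window held 3 matches of GGAAA and 1 CArG box. Among 32851 promoters of the same length, 61.3% held GGAAA on either strand, 9.42% held it at least 3 times and 1.63% held a CArG box. A match describes the letters and shows no binding.

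Other members higher with MI at 7 days came from the Dlk1-Dio3 region, an imprinted cluster expressed in fetal tissue, and from Pvt1. Mirg, which carries 14 microRNA genes of that cluster in RefSeq, had 2.47, 3.33, 2.43 and 4.01 CPM in 7d-MI + 3 against 0.476, 0.867, 1.23 and 0.787 CPM in 7d-SHAM + 3, a log2 fold change of 1.85 ± 0.37 (adjusted p = 0.00059). Gm26945, from the same region, had 1.63, 2.57, 1.29 and 2.80 CPM in 7d-MI + 3 and 0.272, 0.836, 0.231 and 0.543 CPM in 7d-SHAM + 3, with 2.14 ± 0.40 (adjusted p = 0.00029). Neither pair of groups overlapped. Exons of Gm26945 overlap those of another gene on the same strand only, so its counts may hold reads of that gene. A list of 7 genes of the region was tested, of which 1, Mirg, is a member, and Gm26945 is not on it. In 7d-MI + 3 against 7d-SHAM + 3, 5 were higher and 0 lower, beside 19.8% and 14.2% of all genes tested. In 7d-SHAM + 3 against 1d-SHAM + 3, 0 were higher and 5 lower, beside 8.12% and 12.2%. In 1d-MI + 3 against 1d-SHAM + 3, 0 of the list passed the test, beside 4.10% higher and 4.36% lower of all genes tested. With prefix 1103 alone, Mirg passed in that comparison (1.14, adjusted p = 0.030).

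Pvt1, a long noncoding neighbour of Myc, had 1.89, 3.02, 1.80 and 1.63 CPM in 7d-MI + 3 against 0.612, 0.433, 0.538 and 0.380 CPM in 7d-SHAM + 3. It had 3.16, 2.90, 1.33 and 2.79 CPM in 1d-MI + 3 against 1.07, 1.35, 1.04 and 1.53 CPM in 1d-SHAM + 3. The ranges were apart at 7 days and overlapped at 1 day. The log2 fold change was 2.08 ± 0.33 at 7 days (adjusted p = 5.0e-05) and 1.03 ± 0.30 at 1 day (adjusted p = 0.041). The call at 1 day was lost with prefix 1078 alone and with prefix 1103 alone (adjusted p = 0.16 and 0.068).

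Members lower with MI included 1500035N22Rik and 2310040G24Rik, of little known function, and AW112010. 1500035N22Rik, which lies in an intron of Prkag2 on the other strand, had 0.780, 0.271, 0.196 and 0.217 CPM in 7d-MI + 3 and 1.90, 1.86, 1.79 and 2.01 CPM in 7d-SHAM + 3. It had 2.03, 2.95, 3.69 and 1.45 CPM in 1d-MI + 3 and 7.84, 8.16, 13 and 12.7 CPM in 1d-SHAM + 3. Both operation age and MI went with lower values, and no MI library reached its SHAM group. The log2 fold changes were -2.35 ± 0.38 with MI at 7 days (adjusted p = 7.3e-05), -2.04 ± 0.33 with MI at 1 day (adjusted p = 0.0023), -2.76 ± 0.37 in 7d-MI + 3 against 1d-MI + 3 (adjusted p = 1.6e-05) and -2.46 ± 0.34 for the SHAM groups (adjusted p = 7.6e-05).

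2310040G24Rik had 1.82, 0.735, 1.18 and 0.824 CPM in 7d-MI + 3, against 6.73, 6.69, 5.61 and 5.26 CPM in 7d-SHAM + 3. It had 3.04, 4.60, 5.66 and 2.44 CPM in 1d-MI + 3, against 4.94, 5.07, 4.63 and 6.56 CPM in 1d-SHAM + 3. The ranges lay apart at 7 days and overlapped at 1 day. The log2 fold change was -2.41 ± 0.29 at 7 days (adjusted p = 2.8e-06) and -0.43 ± 0.27 at 1 day (adjusted p = 0.30), and the MI effect at 7 days differed from that at 1 day by -1.98 ± 0.39 (adjusted p = 0.0026). AW112010, an RNA known from activated immune cells of the mouse, fell with MI at both ages, by 2.12 on the log2 scale at 7 days (adjusted p = 0.00012) and by 1.62 at 1 day (adjusted p = 0.012). The summed level of 8 macrophage and monocyte markers was 201.6 to 393.2 CPM for 7d-MI + 3, 61.4 to 166.6 CPM for 1d-MI + 3, 63.4 to 79.3 CPM for 7d-SHAM + 3 and 24.8 to 42.4 CPM for 1d-SHAM + 3, and its part in these results was not tested. In bulk tissue, fewer cells of a type and less RNA per cell cannot be told apart.

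**Figure D3:**
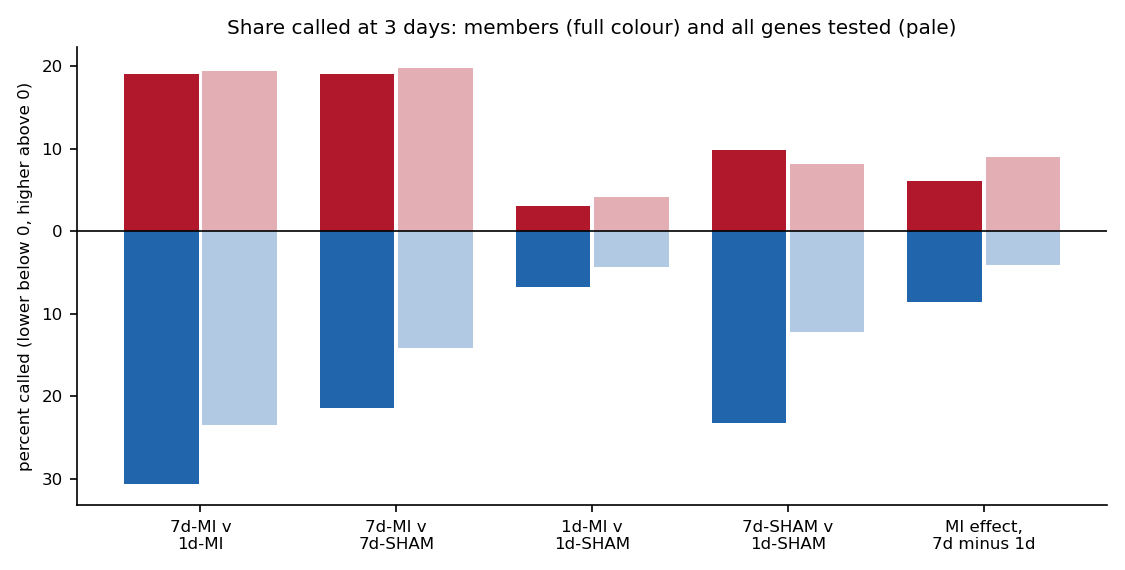
Percent of the 163 members (full colour) and of all 20345 genes tested (pale) called higher (above 0) or lower (below 0) in each comparison at 3 days. The bars of lower members exceed those of all genes in each comparison, for example 30.7% beside 23.5% in 7d-MI against 1d-MI and 23.3% beside 12.2% in 7d-SHAM against 1d-SHAM.

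The remaining comparisons were those of the younger operation and of the SHAM groups. In 1d-MI + 3 against 1d-SHAM + 3, 5 members were higher, beside 4.10% of all genes tested, and 11 were lower, beside 4.36% of all genes tested, and the count was 5 in all with prefix 1078 alone and 37 with prefix 1103 alone. In 7d-SHAM + 3 against 1d-SHAM + 3, 16 members were higher, beside 8.12% of all genes tested, and 38 were lower, beside 12.2% of all genes tested. With prefix 1103 alone the total was 23. The MI effect at 7 days minus that at 1 day was called higher for 10 members, beside 9.01% of all genes tested, and lower for 14 members, beside 4.07% of all genes tested. With the prefix as a random block in limma-voom, the totals were 68, 37, 2, 13 and 2 members in the order in which the 5 comparisons are given here, against 81, 66, 16, 54 and 24.

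Over the comparisons of 2 groups, 121 members (74.2%) were called at least once, beside 63.6% of all genes tested, and 42 were not called. Members lower in 7d than 1d hearts for both MI and SHAM numbered 21 (12.9%, beside 5.82% of all genes tested), and those higher numbered 9 (5.52%, beside 4.63%). With MI, 4 members were higher at both ages (2.45%, beside 2.91%) and 7 lower (4.29%, beside 2.28%).

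Malat1 and Neat1 divided with the receptor reads in 1d-SHAM + 3 but not in 1d-MI + 3, where replicate 2, with the most receptor reads (74.9 CPM), had the lowest level of both. Malat1 had 542.9, 719.4, 1036 and 552.7 CPM in 7d-MI + 3 and 1512, 787.1, 1331 and 1180 CPM in 1d-MI + 3, with a log2 fold change of -0.75 ± 0.26 (adjusted p = 0.025). That call was kept in 10 of 15 alternatives (adjusted p up to 0.083). Malat1 had 566.2, 469.9, 495 and 595.5 CPM in 7d-SHAM + 3 and 1390, 1483, 686.9 and 746.3 CPM in 1d-SHAM + 3. The pair of 1d-SHAM + 3 libraries with the high values is that of prefix 1078. Neat1, the core RNA of paraspeckles, showed the same division, with 26.8, 37.1, 22.8 and 25.5 CPM in 7d-MI + 3, 69.9, 36.6, 59.4 and 86.9 CPM in 1d-MI + 3, 11.1, 7.86, 9.53 and 9.63 CPM in 7d-SHAM + 3 and 61.4, 73.5, 7.09 and 8.59 CPM in 1d-SHAM + 3. In 7d-SHAM + 3 against 1d-SHAM + 3 its log2 fold change was -1.99 ± 0.64 (adjusted p = 0.046), but 0.28 with prefix 1103 alone (adjusted p = 0.67).

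No member met both parts of the tracking rule, a Spearman correlation of at least 0.7 with receptor reads over the 16 libraries and a median expected share of at least 10% of its reads at the receptor genes' rate per length. The correlation alone was reached by 13 members, among them Mirg (0.885), Malat1 (0.821), Gm12295 (0.797), Neat1 (0.750) and Snhg6 (0.706), with a median over members of 0.03. These correlations share libraries, depth and groups and are a description. The highest median share was 1.09%, for Gm37233, though 40 members reached 10% in 1 library, up to 37.5% in Gdap10. Most of the 16 libraries, all those of 7d hearts and 1d-SHAM + 3 replicates 3 and 4, had at most 1.16 CPM of receptor reads. A median over the 16 stays low whatever the share in the other 1d libraries. The share part could therefore hardly be met, and the rule cannot decide about those other libraries. Within groups, 3 of the 13 kept a Pearson correlation of 0.7 or more. Of the 13, 7 were called lower in 7d-MI + 3 against 1d-MI + 3 and 12 were called lower in 7d-SHAM + 3 against 1d-SHAM + 3. After subtraction of receptor reads at their rate per length, 121 of the 126 called results of the named members kept the call and 5 lost it. The 13 were not counted apart in that refit, and the part of the receptor reads in their calls was not tested further. On the other side 8 members had a correlation of -0.7 or less, among them 2900097C17Rik, listed in RefSeq as Norad, an RNA that binds Pumilio proteins.

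**Figure D4:**
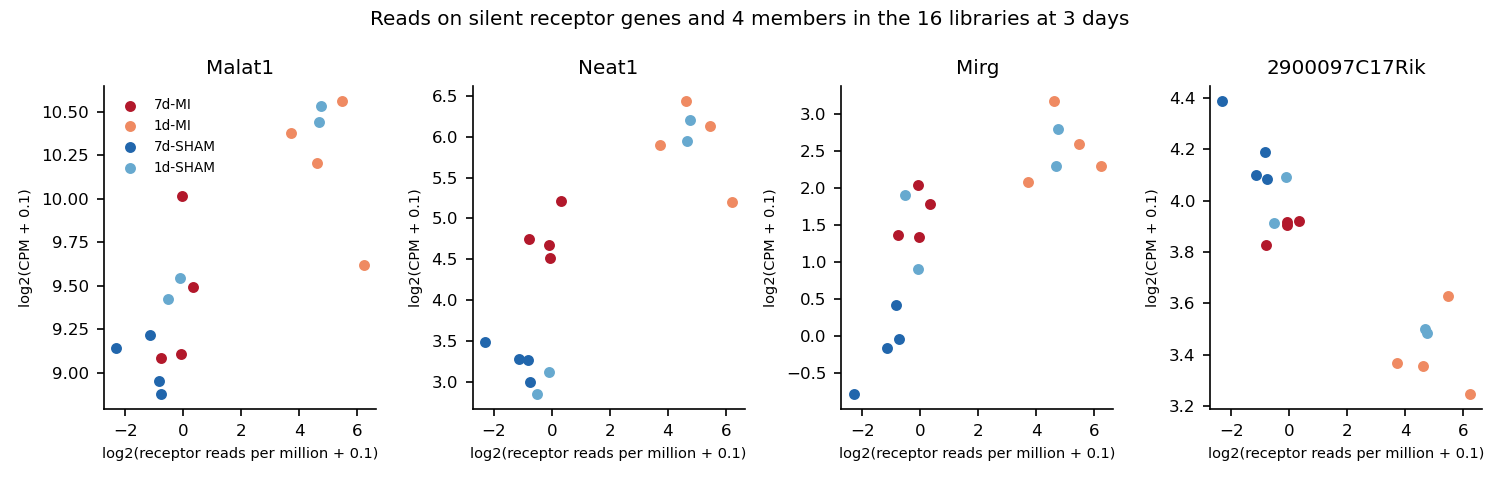
Levels of Malat1, Neat1, Mirg and 2900097C17Rik, as log2(CPM + 0.1), against reads on silent receptor genes, as log2 of their CPM after adding 0.1, in the 16 libraries of the 3-day follow-up, coloured by group. Malat1, Neat1 and Mirg tend to be higher where receptor reads are higher, over the groups together (Spearman 0.821, 0.750 and 0.885), and 2900097C17Rik tends to be lower (-0.847).

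At 21 days few members passed the test. Libraries varied more there, with a common biological coefficient of variation in edgeR of 0.567, against 0.331 at 3 days. TMM factors ran from 0.316 to 1.67. The lack of calls therefore does not show equal levels. In 7d-MI + 21 against 1d-MI + 21, 1 member was higher, beside 0.0243% of all genes tested, and 0 were lower, beside 0.00811%. In 1d-MI + 21 against 1d-SHAM + 21, 0 were higher, beside 0.00811%, and 1 was lower, beside 0.00811%. By edgeR, 0 members passed in 7d-MI + 21 against 7d-SHAM + 21 in either direction, beside 0.00% of all genes tested, where 26 had an unadjusted p under 0.05, and DESeq2 called 5. For 7d-SHAM + 21 against 1d-SHAM + 21 edgeR called 0, beside 0.00% of all genes tested, and 3 had an unadjusted p under 0.05. These libraries had receptor reads of 1.51 to 293.6 CPM, and 13 members had a median share of 10% or more.

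The member called at 21 days was Gm7292, whose exon overlaps 1700030F04Rik on the other strand. It had 8.13, 9.15 and 4.95 CPM in 7d-MI + 21, 0.235, 0.262 and 0.349 CPM in 1d-MI + 21, 4.98, 4.51 and 4.66 CPM in 7d-SHAM + 21 and 10.3, 1.69 and 7.62 CPM in 1d-SHAM + 21. The 1d-MI + 21 libraries stood below all others. Its log2 fold change was 4.68 ± 0.56 in 7d-MI + 21 against 1d-MI + 21 (adjusted p = 0.011) and -4.51 ± 0.56 in 1d-MI + 21 against 1d-SHAM + 21 (adjusted p = 0.016). At 3 days it was 0.94 ± 0.34 in 7d-MI + 3 against 1d-MI + 3 (adjusted p = 0.031).

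Direction was followed for the members called at 3 days. Of the 31 higher in 7d-MI + 3 against 1d-MI + 3, 16 had the same sign at 21 days (51.6%), beside 68.5% of all genes so called, and of the 50 lower, 33 had it (66%), beside 61.6%. Of the 31 higher in 7d-MI + 3 against 7d-SHAM + 3, 14 had it (45.2%), beside 70.4%, and of the 35 lower, 24 had it (68.6%), beside 49.0%. Different library kits and sequencers were used at the follow-ups, which cannot be told apart from time.

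**Figure D5:**
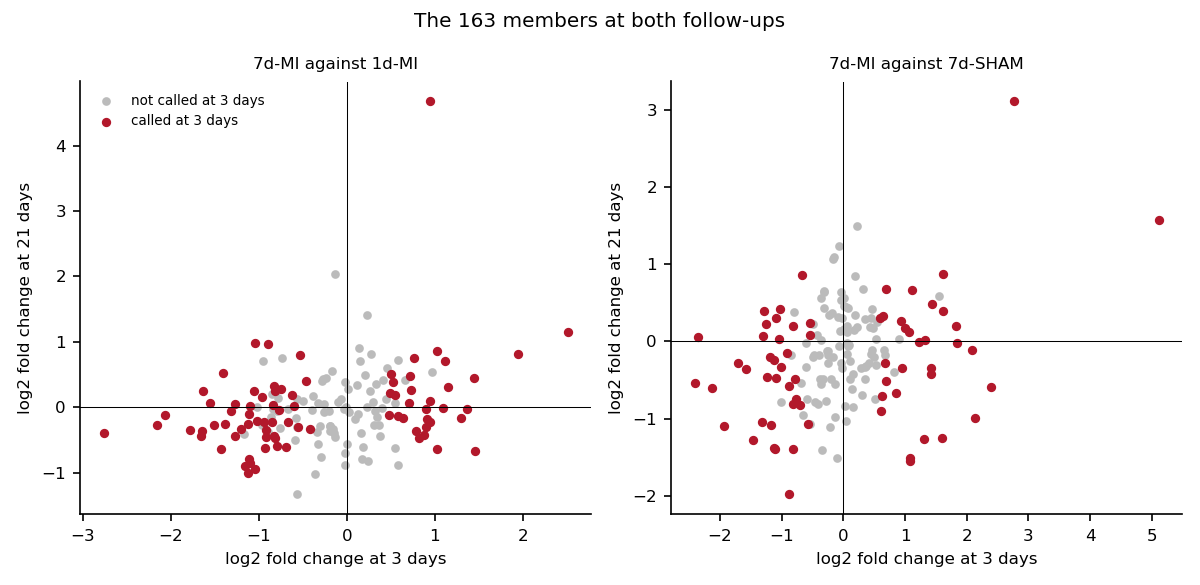
Log2 fold change of the 163 members at 21 days (vertical axis) against that at 3 days (horizontal axis), for 7d-MI against 1d-MI (left) and 7d-MI against 7d-SHAM (right), with members called at 3 days in red. Among members higher at 3 days, 51.6% (left) and 45.2% (right) lie above 0 at 21 days.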

How the data were processed

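RNA from the left ventricular wall was sequenced in 28 libraries, 16 at 3 days (TruSeq stranded total RNA kit) and 12 at 21 days (ScriptSeqV2 kit). Processing notes of the submitters list Cufflinks 2.2.1, TopHat2 2.0.11 and Bowtie2 2.2.2, and build GRCm38. How genes were counted, whether strand was used and from which annotation is not given in the sources used here. The deposited files hold whole-number counts per gene. The CPM column was made by the authors from the counts and the total of each file, and the deposited RPKM column divides CPM by gene length. The deposited log2 columns were not tested. Members were chosen on the deposited CPM column, and libraries deposited as separate lanes were summed. CPM values in the text use TMM-scaled totals.

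Counts were tested with edgeR 4.0.16 (quasi-likelihood, TMM, filterByExpr with minimum count 10 and minimum total 15, 4 group means, each follow-up alone) in R 4.3.3, with Benjamini-Hochberg adjustment over all genes tested. Alternatives used DESeq2 1.42.0, limma 3.58.1, RLE scaling, TMM from protein-coding genes, no filter, each replicate left out, replicate or prefix blocks, and subtraction of receptor reads. The fits were tested on simulated data. Genes named in the text were members of the lists, the 10 most abundant members, those of largest change in each comparison whose groups did not overlap, those called at 21 days and those next to the limit of 1 CPM. Others named, such as overlapping members, were chosen after their values were seen. Members, lists and overlap subsets were chosen with earlier results of these data known. Nothing states that replicates of a group came from separate litters, so p-values measure the spread between these samples.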

Additional observations from a re-analysis of the deposited data

Results flagged for a closer look

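For 30 members, chosen after their values were seen, 120 group values of 4 libraries were examined for a single library far from the other 3, and 9 were found, where chance gives about 1 in 20. Gm7292 stood apart in 3 groups, at 4.18 CPM in 7d-MI + 3 replicate 2 (others 2.65 to 2.70), at 0.545 CPM in 1d-MI + 3 replicate 1 (others 1.84 to 1.98) and at 3.26 CPM in 1d-SHAM + 3 replicate 4 (others 1.37 to 1.55). 1700020I14Rik, listed in RefSeq as Oip5os1, stood apart at 235 CPM in 7d-MI + 3 replicate 3 (others 108 to 127) and at 237 CPM in 7d-SHAM + 3 replicate 1 (others 172 to 179). Snhg6 had 1.37 CPM in 7d-MI + 3 replicate 3 (others 2.49 to 2.71), and 1500035N22Rik had 0.78 CPM in 7d-MI + 3 replicate 1 (others 0.196 to 0.271). Gm20732 had 5.91 CPM in 7d-SHAM + 3 replicate 1 (others 3.18 to 3.47), and 1810058I24Rik had 11.5 CPM in 1d-SHAM + 3 replicate 4 (others 7.34 to 7.93).

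The effect of MI differed between operation ages, by the interaction term of edgeR at 3 days, for 6 of these members. The log2 difference (7d minus 1d) was 2.37 for Gm26945, 1.91 for Gm42743, 1.80 for Gm29233, 1.33 for Dubr, -1.56 for A430046D13Rik and -1.98 for 2310040G24Rik. With 1 prefix of the 1d-SHAM + 3 libraries alone, the call was lost for Gm42743 (prefix 1078, 1.15, adjusted p = 0.073), Gm29233 (prefix 1103, 1.31, adjusted p = 0.12) and Dubr (prefix 1103, 0.74, adjusted p = 0.19), and that of Dubr was kept in 8 of 25 alternatives. Gm29233 shares exon bases with Thbs1, Gm42743 with the histone gene Hist2h2bb, and Gm26945 with another gene on the same strand.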

How the results depend on the processing

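Of 126 called results named above or chosen by the same rule, 59 kept their direction and call under every alternative run for them. Over 2114 alternative values, 1768 kept the call, 345 lost it and 1 turned sign. Of 2566 alternative values of results not called, 153 changed sign with no call and 1 was called with the opposite sign. Both turns of sign that involved a call were of Neat1 with the 1d-SHAM + 3 libraries of prefix 1103 alone, an alternative chosen after seeing the data: 0.28 for 7d-SHAM + 3 against 1d-SHAM + 3, and -1.44 for the difference of the MI effect (adjusted p = 0.012). With the prefix as a random block in limma-voom (consensus correlation 0.202), members called numbered 37 of 66 in 7d-MI + 3 against 7d-SHAM + 3, 2 of 16 in 1d-MI + 3 against 1d-SHAM + 3, 13 of 54 in 7d-SHAM + 3 against 1d-SHAM + 3 and 2 of 24 for the difference of the MI effect. In 7d-MI + 3 against 1d-MI + 3 the number was 68 of 81. The difference gave 25 with prefix 1078 alone and 27 with prefix 1103 alone, and 1d-MI + 3 against 1d-SHAM + 3 gave 5 and 37. 7d-SHAM + 3 against 1d-SHAM + 3 gave 67 and 23. With members of 2 CPM or more, fewer of which exist, 42 were called in 7d-MI + 3 against 7d-SHAM + 3. At 21 days DESeq2 called 5 in 7d-MI + 21 against 7d-SHAM + 21 and 4 in 1d-MI + 21 against 1d-SHAM + 21, fits without a filter called 3 and 2, and limma-voom called 0 in the second of these. RLE scaling split the calls 5 higher and 7 lower in 1d-MI + 3 against 1d-SHAM + 3 (5 and 11 with TMM) and 7 and 17 for the difference (10 and 14). It put the median of all genes at -0.22 in 1d-MI + 21 against 1d-SHAM + 21, where TMM put it at -0.11, and TMM from protein-coding genes put it at -0.25 in 7d-MI + 21 against 7d-SHAM + 21, where TMM of all genes put it at -0.13. The tracking rule found 1 member in the 21-day libraries and 7 when the share was taken in the library of most receptor reads. The causes were not tested.

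Leaving out 1 library gave 65 to 77 members in 7d-MI + 3 against 1d-MI + 3, 50 to 63 in 7d-MI + 3 against 7d-SHAM + 3, 6 to 25 in 1d-MI + 3 against 1d-SHAM + 3, 30 to 62 in 7d-SHAM + 3 against 1d-SHAM + 3 and 15 to 29 for the difference. In 1d-MI + 3 against 1d-SHAM + 3, without 1d-MI + 3 replicates 1, 2, 3 and 4 the counts were 7, 6, 25 and 8, and without 1d-SHAM + 3 replicates 1, 3 and 4 they were 10, 8 and 9. In 7d-SHAM + 3 against 1d-SHAM + 3 they were 33 and 34 without 7d-SHAM + 3 replicates 2 and 4, and 35 and 30 without 1d-SHAM + 3 replicates 1 and 2. The difference fell to 15 without 7d-SHAM + 3 replicate 2. At 21 days the ranges were 0 to 1, 0 to 26 in 7d-MI + 21 against 7d-SHAM + 21 (26 without 7d-SHAM + 21 replicate 1), 0 to 1 and 0 to 0. Gm7292 was lost without any single 1d-MI + 21 library in 7d-MI + 21 against 1d-MI + 21, and in 1d-MI + 21 against 1d-SHAM + 21 without 1d-MI + 21 replicate 1 or 2 or 1d-SHAM + 21 replicate 2. The replicate block at 21 days left the counts at 1, 0, 1 and 0. Replicate numbers did not pair the samples, with correlations of deviations of -0.19 to 0.54.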

Other observations

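Proteins of the paraspeckle, the nuclear body built on Neat1, were followed beside it. Of 12 such genes tested, 5 were higher and 1 lower in 7d-MI + 3 against 7d-SHAM + 3, beside 19.8% and 14.2% of all genes tested, with log2 fold changes of 0.88 for Rbm14 (adjusted p = 0.0036), an RNA-binding protein, and -0.60 for Matr3 (adjusted p = 0.0048), a nuclear matrix protein. Neat1 itself had 1.56 there and did not pass (adjusted p = 0.078), and 2 of 15 alternatives made the call. Its mean was 28.1 CPM (SD 6.28) in 7d-MI + 3 and 9.53 CPM (SD 1.32) in 7d-SHAM + 3, and these groups did not overlap. The fit also took in 1d-SHAM + 3, where the mean was 37.7 CPM with an SD of 34.8. The missed threshold therefore does not show equal levels. Among 17 noncoding RNAs of growth and p53 pathways, 2 were higher and 9 lower in 7d-MI + 3 against 1d-MI + 3, beside 19.4% and 23.5% of all genes tested, and among 16 named for heart, vessel or infarction, 1 was higher and 8 lower. Of the lower ones, 3 on the growth and p53 list and 2 on the heart list had no read in any 7d library of the 3-day follow-up, where receptor reads were 0.102 to 1.16 CPM, against 13.1 to 74.9 CPM in 1d-MI + 3, and the part of those reads was not tested.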
